A study of Mus musculus with 7 samples.

Results

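The 77 genes described here carry the Mrpl (48 genes) or Mrps (29 genes) symbols given to proteins of the mitochondrial ribosome, out of 19933 genes measured in mouse liver. All but Mrps36 encode a ribosomal protein. A probe set (the row of probes that reads 1 gene) was taken where its annotation held exactly 1 gene symbol and that symbol began with Mrpl or Mrps and a number. This gave 85 of 27541 rows, and the brightest row stood for each gene. A single further row, shared by Mrpl53 and Ccdc142, was left out. The livers came from C57BL/6 male mice aged 4 months, fed chow ad libitum, and were collected at 5 pm (ZT10) 2 weeks after injection of adeno-associated virus (AAV). The knockout group (3 arrays) received AAV-Cre and is labelled as HDAC3 knockout. The rescued group (4 arrays) received AAV-Cre plus AAV-Flag-HDAC3, is labelled as HDAC3 rescued wild-type, and is called wild type in its titles. Both groups therefore carry the Cre virus, the comparison is between livers without and with exogenous HDAC3, and no uninjected liver was analysed here. The labels name neither a floxed allele nor the promoter of either virus. HDAC3 is a histone deacetylase that works within nuclear receptor corepressor complexes.

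Mitochondria carry their own ribosome, which makes the few proteins encoded by mitochondrial DNA, all of them subunits of the respiratory chain and ATP synthase. Its large subunit joins amino acids and its small subunit reads the messenger RNA. The ribosomal RNAs come from mitochondrial DNA, whereas every protein of both subunits is encoded in the nucleus and imported. Some of these proteins have counterparts in bacterial ribosomes and others occur only in mitochondria. In liver, whose cells are rich in mitochondria, this translation supports oxidative metabolism.

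Hdac3 itself was lower in the knockout, at 8.92 ± 0.16 (SD, n = 3) against 9.40 ± 0.13 (n = 4) on the log2 intensity scale. The difference was -0.48 (SE 0.10, limma adjusted p = 0.0124), and without knockout replicate 1 the adjusted p was 0.05001, just past the threshold. Whether its probes lie in the deleted part of the gene, or read the viral HDAC3 transcript, was not tested. All 77 members had a mean level above 6.21, a background level taken as the 95th percentile over 1194 genes of olfactory and vomeronasal receptors. Levels of members on single arrays lay between 6.13 and 11.06, and levels of different probe sets cannot be compared with each other. Median intensity per array was 105 to 111 for knockout and 96.3 to 102 for rescued livers, so an offset separates the groups as deposited. These are bulk livers, in which fewer cells of a type and less RNA per cell cannot be told apart.

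Most mitochondrial ribosomal protein genes differed little between knockout and rescued livers. Only Mrpl12 was called higher and only Mrpl48 called lower at an adjusted p under 0.05 (limma, Benjamini-Hochberg over all 19933 genes), both of them in the large subunit. The share called over the whole array was 14.4%, of which 9.54% were higher and 4.85% lower in the knockout. Among the 9966 genes above the median level the same fit called 17.8%, with 9.09% higher and 8.73% lower. No small subunit gene was called in either direction by limma; at an unadjusted p under 0.05, 2 were higher and 1 lower. Other settings, given below with their genes, called up to 2 of them higher or 1 lower. In the large subunit, 6 were higher and 4 lower at that unadjusted threshold, against 35.7% of all genes in either direction. For 7 members every knockout array lay above every rescued array, and for 7 every knockout array lay below. Such a separation, in either direction, was seen for 29.6% of all genes.

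**Figure D1:**
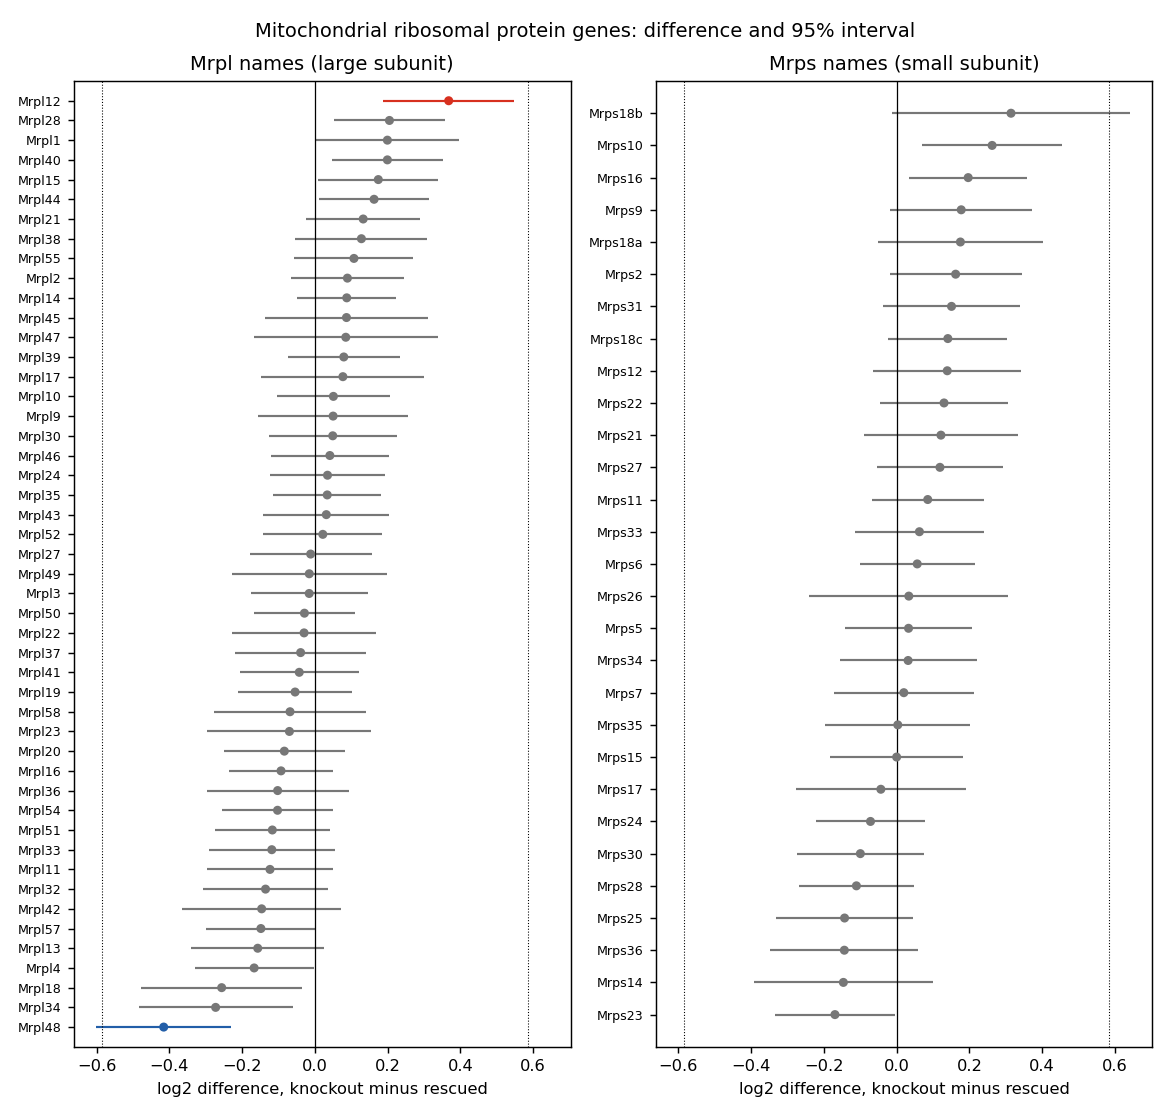
Difference between knockout (n = 3) and rescued (n = 4) arrays on the log2 scale (points) with its 95% interval (bars) for the 48 Mrpl genes (left) and 29 Mrps genes (right), ordered by size. Dotted lines mark 1.5-fold either way, red marks Mrpl12 (called higher) and blue Mrpl48 (called lower); the bars of Mrpl48 and Mrps18b cross a dotted line and those of the other 75 genes do not.

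The size of the differences was small as well as their number. The median difference of the large subunit was -0.01 (quartiles -0.10 to 0.09), with 23 genes above 0 and 25 below. The small subunit had a median of 0.06 (quartiles -0.04 to 0.14), with 20 genes above 0 and 9 below. For comparison, the median of all genes was 0.09 and that of the genes above the median level was 0.00. Above 0 were 13659 of all 19933 genes, and 4985 of the 9966 genes above the median level. A difference of more than 1.2-fold was measured for 4 members (5.19%), Mrpl48, Mrpl12, Mrps18b and Mrpl34, against 18.1% of all genes and 21.8% of those above the median level. The 95% interval of each gene, without adjustment for their number, gives what the arrays can bound. It lay within 1.5-fold either way for 75 of 77 members (97.4%; all genes 93.5%), and within 1.2-fold for 31 (40.3%; all genes 28.5%). Changes under 1.2-fold were therefore not bounded for most members with this number of arrays.

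Mrpl12, the member called higher, encodes the protein of the L7/L12 stalk, the flexible arm of the large subunit that recruits translation factors, and it is also known to bind the mitochondrial RNA polymerase. Its log2 intensity was 9.87, 9.92 and 9.62 in the knockout and 9.42, 9.37, 9.49 and 9.47 in the rescued arrays. Every knockout array lay above every rescued array, with knockout replicate 3 the nearest to them. The group means were 9.80 ± 0.16 (SD, n = 3) and 9.44 ± 0.05 (n = 4). The difference was 0.37 (SE 0.08, 95% interval 0.19 to 0.55), a 1.29-fold higher level, with a limma adjusted p of 0.0187. The call was lost without knockout replicate 1 (0.33, adjusted p = 0.0724), knockout replicate 2 (0.31, 0.0560) or rescued replicate 2 (0.35, 0.0540), and after median centring (0.25, 0.0601). It held in 14 of 18 alternatives fitted by limma at the threshold of 0.05, whose adjusted p ran from 0.00525 to 0.0724, and the difference stayed above 0 in all of them. It did not hold at a threshold of 0.01 or when tested against a fold of 1.2 (limma treat). Mrpl12 has 1 probe set, so the alternatives on other probe sets could not change its difference.

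The other stalk proteins did not pass the test, and were picked out for their place after the values were seen. Mrpl10, which anchors the stalk, was at 0.05 (limma adjusted p = 0.615, and -0.06 after median centring). Mrpl11, at the stalk base, was at -0.12 (limma adjusted p = 0.269) and Mrpl54 at -0.10 (0.295). The knockout arrays of Mrpl54 lay between 8.29 and 8.40 and the rescued arrays between 8.42 and 8.56, so these groups did not overlap, in the opposite direction to Mrpl12.

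In the RefSeq gene table Mrpl12 lies on chromosome 11 between Hgs, an endosomal sorting gene, and Slc25a10, which encodes the mitochondrial dicarboxylate carrier. These neighbours were looked up after the values of Mrpl12 were seen. Slc25a10 was measured at 11.96, 12.01 and 11.68 in the knockout and at 11.14, 11.09, 11.08 and 11.05 in the rescued arrays. All knockout arrays were above all rescued arrays, and knockout replicate 3 was again the lowest of its group. The difference was 0.79 (SE 0.08), or 1.73-fold, with a limma adjusted p of 0.000529, and it was called in all 18 alternatives (adjusted p 0.000126 to 0.00690). Hgs was at 0.06 (limma adjusted p = 0.530, and -0.05 after median centring). Whether the probes of Mrpl12 also read transcripts of a neighbour was not tested.

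Mrpl48, the member called lower, encodes a protein found only in mitochondrial ribosomes, in the central protuberance of the large subunit, the crown that faces the small subunit. It was measured at 8.44, 8.10 and 8.30 in the knockout and at 8.68, 8.75, 8.71 and 8.63 in the rescued arrays. The groups did not overlap, and the knockout arrays were spread more widely than the rescued arrays. The means were 8.28 ± 0.17 (SD, n = 3) and 8.69 ± 0.05 (n = 4), a difference of -0.42 (SE 0.08, 95% interval -0.60 to -0.23) and a 1.33-fold lower level, with a limma adjusted p of 0.0131. It was called lower in the 18 alternatives fitted at the threshold of 0.05, with differences from -0.53 to -0.33 and limma adjusted p from 0.00248 to 0.0415. At a threshold of 0.01, or tested against a fold of 1.2 (limma treat), it was not called. Mrpl48 too has 1 probe set, so the alternatives on other probe sets could not change its difference. The RefSeq table also lists a pseudogene, Mrpl48-ps. Where in the genome the probes of Mrpl48 lie was not checked, and whether they read transcripts of the pseudogene was not tested.

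Other proteins of the central protuberance, and the neighbours of Mrpl48, were picked out after their values were seen, and none was called. Mrpl40 was at 9.70, 9.72 and 9.59 in the knockout and 9.54, 9.40, 9.50 and 9.45 in the rescued arrays. Its groups did not overlap, with the knockout above, opposite to Mrpl48 (difference 0.20, SE 0.07, limma adjusted p = 0.0716). Mrpl18, the counterpart of the bacterial protein that holds the 5S RNA, was at -0.26 (limma adjusted p = 0.0978). Mrpl38 was at 0.13 (limma adjusted p = 0.275) and Mrpl46 at 0.04 (0.701, and -0.07 after median centring). Mrpl48 lies on chromosome 7 between Coa4, an assembly factor of cytochrome c oxidase, at 0.07 (limma adjusted p = 0.635) and Rab6a, a Golgi trafficking GTPase, at -0.06 (0.572). Under alternative settings these small differences of the neighbours took either sign.

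Promoter windows are shown for the called members, because they carry the motifs of factors known to act on nuclear genes for mitochondrial proteins. The sequences are from RefSeq (build GRCm38.p6), 5′ to 3′ on the gene's strand, and end at the base before the annotated start. Capitals mark a match to the NRF1 motif GCGCNTGCG in Mrpl12 (chr11:120484387-120484636, plus strand), which begins 81 bases before the start. In Mrpl48 (chr7:100583131-100583380, minus strand) they mark a match to the ETS motif CCGGAAGT, read here on the other strand, which begins 35 bases before the start.
Mrpl12: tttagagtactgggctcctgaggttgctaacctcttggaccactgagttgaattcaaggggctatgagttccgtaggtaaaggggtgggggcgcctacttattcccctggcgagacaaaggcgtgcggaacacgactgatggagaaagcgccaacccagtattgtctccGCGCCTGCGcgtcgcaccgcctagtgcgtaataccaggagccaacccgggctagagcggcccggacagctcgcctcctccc
Mrpl48: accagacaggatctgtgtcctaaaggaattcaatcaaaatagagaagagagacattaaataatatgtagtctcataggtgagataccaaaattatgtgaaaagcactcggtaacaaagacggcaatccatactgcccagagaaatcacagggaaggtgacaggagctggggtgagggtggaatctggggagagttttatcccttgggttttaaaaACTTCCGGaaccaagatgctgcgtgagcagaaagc
Mrpl48 has 4 annotated starts, and the windows of the other 3 held none of the motifs searched.

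Of the 77 members, 68 had a promoter window, which spans 250 bases before to 50 after a start, and 3 motifs, in forms set after the members' values were seen, were searched on both strands. The NRF1 motif was present for 18 members (26.5%), against 7.12% of 27025 genes with a window. The ETS motif, bound by the factor GABP among others, was present for 12 members (17.6%; all genes 4.31%). The YY1 motif AAGATGGCG was present for 8 members (11.8%; all genes 1.64%). A match is a description of the letters and does not show binding. The 35 members with at least 1 motif and the 33 with none had the same median difference of 0.03. By motif, the medians with and without a match were 0.06 and -0.01 for NRF1, 0.00 and 0.04 for ETS, and -0.00 and 0.03 for YY1. Members with the NRF1 motif ranged from -0.15 (Mrpl57) to 0.37 (Mrpl12), and those with the ETS motif from -0.42 (Mrpl48) to 0.14 (Mrps18c).

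Among other large subunit genes, the next highest difference was that of Mrpl28, whose bacterial counterpart sits in the core of the subunit. It was measured at 8.42, 8.28 and 8.24 in the knockout and 8.09, 8.12, 8.14 and 8.08 in the rescued arrays. The groups did not overlap, and the difference of 0.20 (SE 0.07) had a limma adjusted p of 0.0666. Mrpl28 was called higher after quantile normalization (0.23, adjusted p = 0.0381) and among genes above the median level after cyclic loess (0.25, 0.0180), where 20.8% of the genes tested were called, with limma adjusted p from 0.0180 to 0.403 over 18 alternatives. Mrpl1, of the L1 stalk on the side where transfer RNAs leave, was at 8.40, 8.63 and 8.30 against 8.30, 8.12, 8.23 and 8.34. Those groups overlapped (difference 0.20, SE 0.09, limma adjusted p = 0.137).

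Below 0, the largest differences after Mrpl48 were those of Mrpl34 and Mrpl18. Mrpl34, a small protein with a bacterial counterpart, was at 9.74, 9.34 and 9.54 in the knockout and 9.70, 9.84, 9.78 and 9.92 in the rescued arrays. Knockout replicate 1 lay above rescued replicate 1, so the groups overlapped (difference -0.27, SE 0.10, limma adjusted p = 0.0747). Mrpl18 was at 8.67, 8.77 and 8.82 against 8.77, 8.96, 9.23 and 9.07. Here rescued replicate 1 lay within the knockout range, and without that array the difference was called lower (-0.33, limma adjusted p = 0.0344).

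In the small subunit the highest difference was that of Mrps18b, a mitochondrial relative of the bacterial protein S18. It was measured at 10.87, 10.35 and 10.32 in the knockout and at 10.14, 10.20, 9.95 and 10.51 in the rescued arrays. The groups overlapped, since rescued replicate 4 lay above the knockout arrays 2 and 3. The difference was 0.31 with a wide error (SE 0.15, 95% interval -0.01 to 0.64, limma adjusted p = 0.153). Leaving out single arrays moved it between 0.14, without knockout replicate 1, and 0.42, without rescued replicate 4 (limma adjusted p = 0.0921). With a replicate block, which the pairing check did not bear out, the same difference of 0.42 was called (limma adjusted p = 0.0441; 0.0441 to 0.520 over 18 alternatives).

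Mrps10 and Mrps16 were the next highest. Mrps10, a protein of the head of the subunit, was at 8.51, 8.24 and 8.27 in the knockout and 8.05, 8.20, 7.95 and 8.11 in the rescued arrays. Mrps16, of its body, was at 8.99, 8.79 and 8.77 against 8.68, 8.66, 8.65 and 8.62. For both genes all knockout arrays were above all rescued arrays, and knockout replicate 1 was the highest. The differences were 0.26 for Mrps10 (SE 0.09, limma adjusted p = 0.0647) and 0.20 for Mrps16 (SE 0.07, limma adjusted p = 0.0871), and both were called higher among genes above the median level after cyclic loess, where 10.3% of genes were called higher and 10.5% lower.

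Mrps23, found only in mitochondrial ribosomes, had the lowest difference of the small subunit. Its values were 8.26, 8.25 and 8.29 in the knockout and 8.31, 8.45, 8.40 and 8.57 in the rescued arrays. The knockout arrays were close together and all below the rescued arrays (difference -0.17, SE 0.07, limma adjusted p = 0.130). Mrps14, a protein of the head, was at 6.74, 7.28 and 7.17 against 7.17, 7.26, 7.19 and 7.21. Only knockout replicate 1 was low, and the difference of -0.15 (SE 0.11, limma adjusted p = 0.350) was 0.01 without it.

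**Figure D2:**
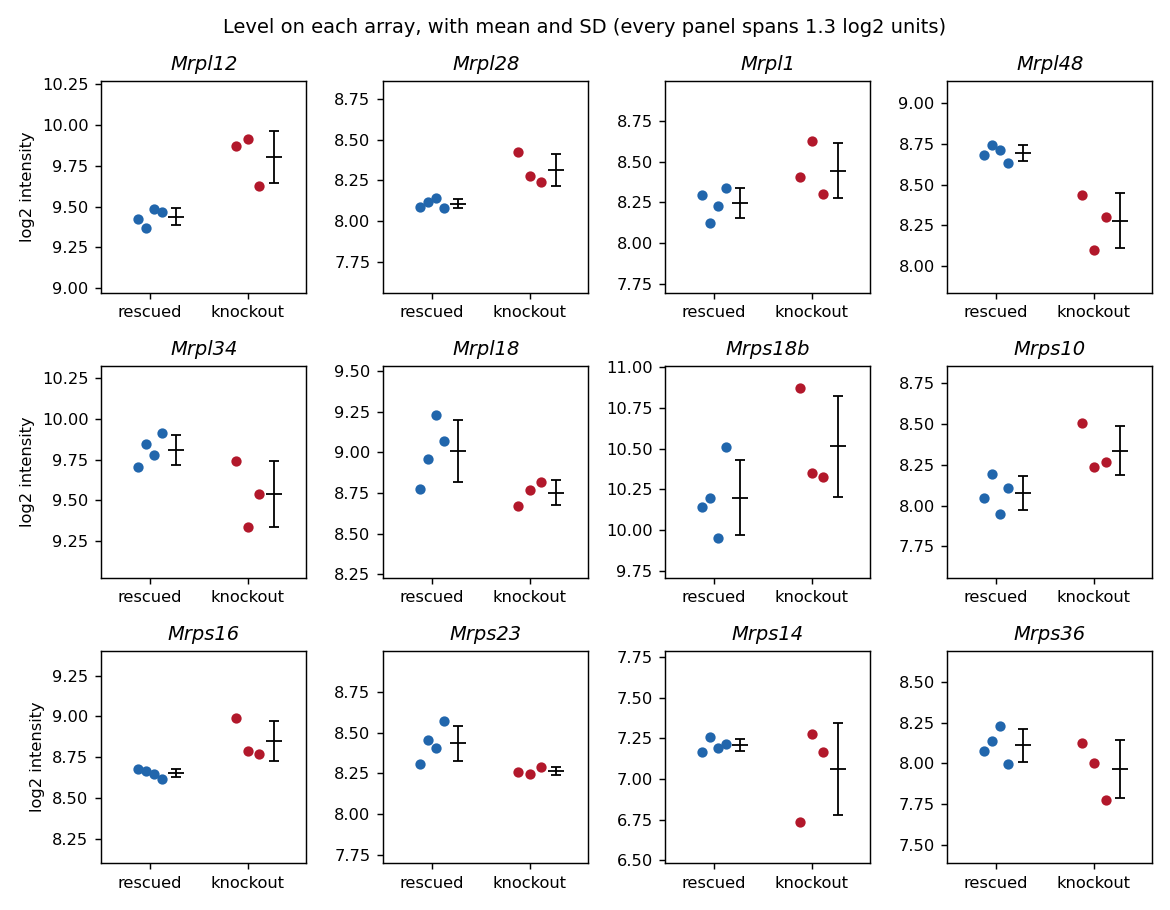
Log2 intensity of 12 members on each rescued (blue, n = 4) and knockout (red, n = 3) array, with mean and SD beside the points; every panel spans the same log2 range. The groups are apart for Mrpl12, Mrpl28, Mrpl48, Mrps10, Mrps16 and Mrps23 and overlap for Mrpl1, Mrpl34, Mrpl18, Mrps18b, Mrps14 and Mrps36.

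Some names do not give the protein's place. Mrps36 encodes a component of the 2-oxoglutarate dehydrogenase complex and not a ribosomal subunit, and it was at -0.14 (limma adjusted p = 0.274). Mrps30 and Mrps18a, despite their names, are built into the large subunit, and were at -0.10 (limma adjusted p = 0.371) and 0.18 (0.236). Mrps18c, the closest counterpart of bacterial S18, was at 0.14 (limma adjusted p = 0.192). Mrpl58, a peptidyl-tRNA hydrolase that releases stalled chains and is also built into the large subunit, was at -0.07 (limma adjusted p = 0.612), and Mrpl57 at -0.15 (0.143). Placed by structure, 50 large subunit genes had a median of -0.01 and 26 small subunit genes a median of 0.06, with the same counts of called genes as by name.

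The 46 members with a bacterial counterpart and the 30 found only in mitochondria had the same median difference of 0.03. The first set held Mrpl12 as its only called gene and the second Mrpl48. In the first set 26 genes were above 0 and 20 below, and in the second 17 and 13. The members lie on 17 chromosomes, with 11 on chromosome 11 and 8 on chromosome 17, so they form no single block in the genome.

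How the arrays are scaled moved the members as a group, so each direction holds for a stated scaling. Median centring of the arrays moved the median difference of all genes by -0.11, from 0.09 to -0.03. Under it the large subunit median was -0.13 and the small subunit median -0.06, and 7 members were called, all lower. These were Mrpl4, Mrpl16, Mrpl32, Mrpl34, Mrpl48, Mrpl57 and Mrps23, while 13.5% of all genes were called, with 10.9% lower and 2.59% higher. The 9966 genes above the median level, which include most members, had a median of -0.11 after median centring. Of these genes 2293 were called, 1927 of them lower. A shift below 0 under this scaling was therefore not particular to the members. Quantile normalization gave 3 called members, Mrpl12 and Mrpl28 higher and Mrpl48 lower, where 9.98% of all genes were called (4.22% higher, 5.76% lower). Cyclic loess gave Mrpl12 and Mrpl48 as deposited, where 9.84% were called (4.09% higher, 5.75% lower). Under both, the large subunit median was within 0.002 of 0 and the small subunit median 0.06 and 0.04. Mrpl48 was thus called lower under every scaling tried, and Mrpl12 higher under all but median centring.

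**Figure D3:**
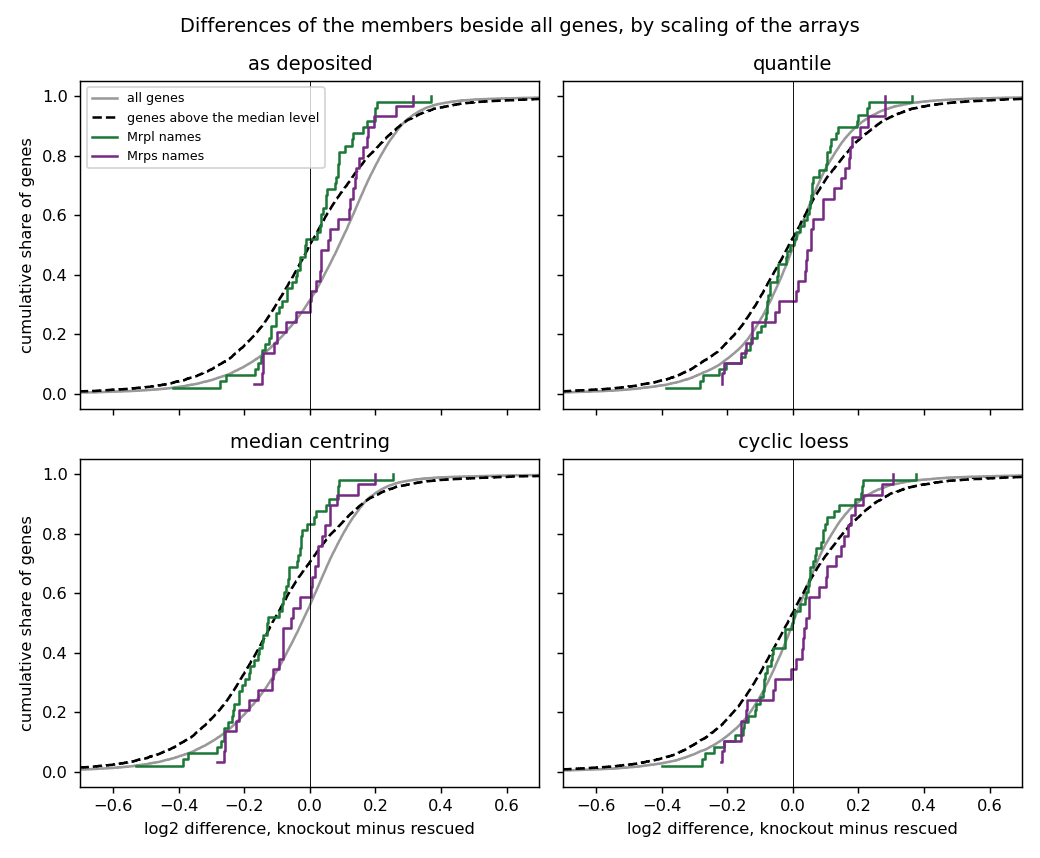
Cumulative share of genes (vertical axis) by log2 difference, knockout minus rescued (horizontal axis), for Mrpl genes, Mrps genes and all genes, in 1 panel for each scaling of the arrays. The curves of both subunits lie further left after median centring, where their medians are -0.13 and -0.06, than as deposited, where they are -0.01 and 0.06.

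The members' mean level differed from array to array within the groups, in a way that depended on the scaling. As deposited, and as the mean deviation from each gene's own mean over all arrays, the large subunit was at 0.06, 0.02 and -0.10 on the knockout arrays and at -0.03, -0.02, 0.02 and 0.05 on the rescued arrays. The small subunit was at 0.10, 0.07 and -0.08, then -0.05, -0.04, -0.03 and 0.03. On these values knockout replicate 3 lay below every rescued array in both subunits, and knockout replicate 1 above every rescued array. After quantile normalization the large subunit was at -0.04 on knockout replicate 3 and the small subunit at -0.03, no lower than rescued replicate 3 (-0.03). Knockout replicate 1 of the large subunit was then at 0.03, below rescued replicate 4, and after median centring it was at -0.05, below every rescued array. As deposited, genes above the median level had the same order of arrays as the large subunit with smaller values, at 0.04, 0.02 and -0.05 in the knockout. Knockout replicate 1 was the highest of its group for 44 members, replicate 2 for 30 and replicate 3 for 3 (3.90%), whereas replicate 3 was the highest for 18.8% of all genes. That share was not computed for genes above the median level. Knockout replicate 3 was their lowest array, at -0.05, against -0.002 over all genes. The SD was larger in the knockout than in the rescued group for 58 of 77 members (75.3%), against 59.4% of genes above the median level, with a median SD of 0.12 against 0.07. Without knockout replicate 3 the median difference was 0.05 for the large and 0.14 for the small subunit.

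**Figure D4:**
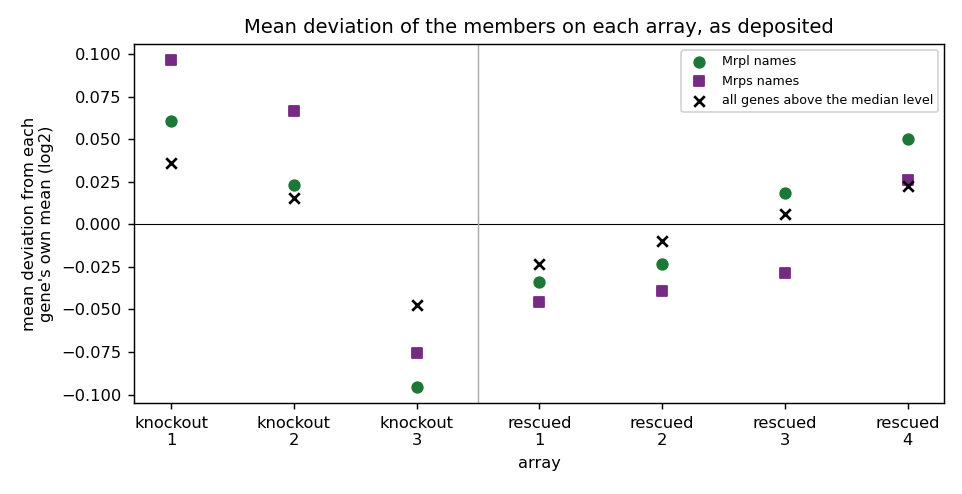
Mean deviation from each gene's own mean (log2, vertical axis) on each of the 7 arrays for Mrpl genes, Mrps genes and all genes above the median level, with values as deposited. Knockout replicate 3 is the lowest array for both subunits, at -0.10 and -0.08, and knockout replicate 1 the highest, at 0.06 and 0.10.

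For 8 members the array held a further probe set. Where the probes of either set lie in the genome was not checked. Either set, including the brighter one used, may read other parts of the gene or a related sequence. Mrpl51 was at -0.12 by the probe set used (unadjusted p = 0.133) and -0.35 by the other (unadjusted p = 0.0180, adjusted p = 0.0880, limma over all rows). Mrpl47 was at 0.08 (-0.03 after median centring) and 0.24 (limma unadjusted p = 0.0175 and adjusted p = 0.0869 for the latter). The other probe set of Mrps36 was at 4.41 ± 0.04 (SD, n = 3) against 4.67 ± 0.07 (n = 4), under the background level. Its difference of -0.26 (limma adjusted p = 0.0419 over all rows) was therefore not taken as a reading of the gene. The background level comes from probe sets of other genes and is no detection limit for this one. The probe sets of Mrpl23 (-0.07 and 0.13) and Mrpl41 (-0.04 and 0.08) differed in sign without passing the test. The other probe set of Mrps33 was under the background level, at 5.15 against 5.19, so its difference was not taken as a reading of the gene. Mrpl27 and Mrps5 agreed in sign. The RefSeq table lists pseudogenes of Mrpl23, Mrpl27 and Mrps36, and whether their transcripts reach these probes was not tested.

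The rest of the mitochondrial translation machinery was read in lists chosen by role, for which the share of all genes called was 14.4% as deposited. After median centring 10.9% of all genes were called lower, as were 1927 of the 9966 genes above the median level. Under that scaling 3 translation factors, 3 assembly factors, 1 synthetase, 2 genes of transcription and RNA stability and 2 regulators were called, all lower. The counts that follow are for the values as deposited. Mitochondrial ribosome proteins under other names (5 measured of 6 listed) had a median difference of 0.13 and none was called by limma, with 2 at an unadjusted p under 0.05. The list includes Oxa1l (0.02), a membrane insertase and not a ribosomal protein. Dap3, the GTP-binding protein of the small subunit, was at 8.56 ± 0.08 (SD, n = 3) against 8.31 ± 0.11 (n = 4), a difference of 0.26 (SE 0.08). Its limma adjusted p was 0.0509, and it was called in 8 of 18 alternatives (adjusted p 0.0123 to 0.284). Gadd45gip1, of the large subunit, was at 0.17 (limma adjusted p = 0.126) and Ptcd3, of the small subunit, at 0.13 (0.197). Of 12 translation factors measured (13 listed), none was called by limma, 1 was lower at an unadjusted p under 0.05, and the median was -0.07. Tufm, the elongation factor that brings transfer RNAs to the ribosome, was at -0.17 (limma adjusted p = 0.0874), and Mtfmt, which formylates the initiator, at -0.17 (0.156). Both were called lower after median centring, at -0.28, and the mean of its probe sets put Tufm at -0.06. The limma adjusted p over 18 alternatives was 0.0192 to 0.569 for Tufm and 0.0383 to 0.343 for Mtfmt.

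Factors that assemble the ribosome or modify its RNA (24 of 24 measured, median -0.00) held 1 gene called higher and 1 called lower. Tfb1m, which methylates the small subunit RNA, was at 7.94, 8.36 and 8.18 in the knockout and 8.67, 8.45, 8.55 and 8.95 in the rescued arrays. The groups did not overlap (difference -0.50, SE 0.13, limma adjusted p = 0.0290), and the call held in 12 of 18 alternatives (adjusted p 0.0126 to 0.116). Mettl15, another methyltransferase of that RNA, was at 7.01, 7.23 and 6.84 against 6.77, 6.53, 6.70 and 6.78. Its groups did not overlap either (difference 0.33, SE 0.10, limma adjusted p = 0.0479), but the call held in only 5 of 16 alternatives (adjusted p 0.0300 to 0.169).

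Mitochondrial aminoacyl-tRNA synthetases, which load transfer RNAs, were listed with Qrsl1, Gatb and Gatc, subunits of an amidotransferase (19 of 20 measured, median -0.01). This list held no called gene by limma and 2 at an unadjusted p under 0.05. These were Rars2 at -0.30 (limma adjusted p = 0.0546) and Iars2 at 0.22 (0.0952). Genes of mitochondrial DNA transcription and RNA stability (12 of 15, median 0.00) had 3 at an unadjusted p under 0.05 and none called by limma. Tfb2m, a partner of the mitochondrial RNA polymerase, was at 0.23 (limma adjusted p = 0.0589), but at 0.05 by the mean of its probe sets (0.645; 0.0491 to 0.645 over 18 alternatives). Pnpt1, an RNA-degrading enzyme, was at -0.22 (limma adjusted p = 0.0706). Among 9 regulators of mitochondrial biogenesis (median -0.07), none was called by limma and 2 were lower at an unadjusted p under 0.05. Nrf1, whose motif is described above, was at -0.39 (SE 0.13, limma adjusted p = 0.0620), and Pprc1, a coactivator related to PGC-1, at -0.18 (0.0811). Rars2, Pnpt1, Nrf1 and Pprc1 were each called lower after median centring. The 15 mitochondrially encoded genes were not analysed here. The 61 cytosolic ribosomal protein symbols, a list taken after the members' values were seen, had a median of -0.07, with 0 called higher and 2 lower. Quantile normalization and cyclic loess called 5 of them each, and median centring 12, all lower, with a median of -0.19.

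**Figure D5:**
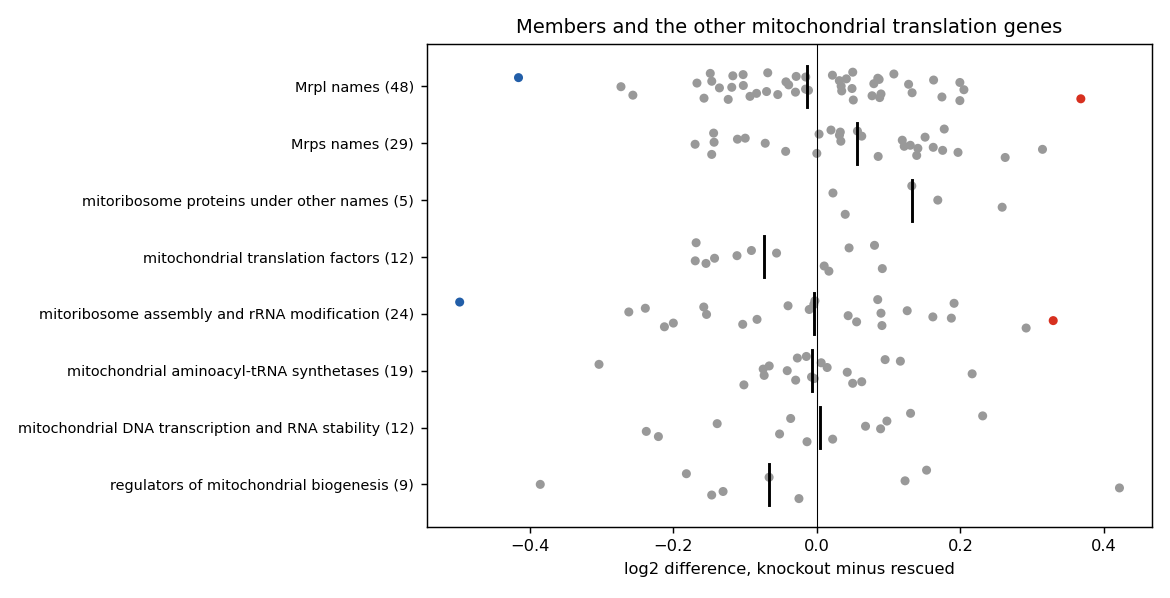
Log2 difference, knockout minus rescued, of each gene (points) in the 2 member sets and 6 related lists, with the number measured in parentheses and the median as a bar; red and blue mark genes called higher and lower. The called genes are Mrpl12, Mrpl48, Mettl15 and Tfb1m, and the medians run from -0.07 to 0.13.

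Markers of liver cell types were read on the same arrays. None of 8 hepatocyte, 10 Kupffer cell, 4 cholangiocyte, 5 lymphocyte or 3 neutrophil markers was called as deposited. Both group means of Epcam, Cd3g, Cd79a, S100a8 and Ly6g lay under the background level, so these were not taken as a reading of their cells. Hepatocyte markers summed to between 81022 and 84576 intensity units in knockout livers and between 80089 and 83404 in rescued livers, so the tissue label was borne out in both. Of 7 endothelial markers, 2 were called lower, Clec4g at -0.29 (limma adjusted p = 0.0477) and Fcgr2b at -0.21 (0.0459), against 14.4% of all genes called. These calls held in 7 and 9 of 18 alternatives (limma adjusted p 0.0205 to 0.280 and 0.00741 to 0.110), and the mean of its probe sets put Clec4g at -0.11. The 7 endothelial markers summed to 4563 to 5420 against 5467 to 5597 as deposited. Clec4g, at a mean of 11.02 against 11.32, weighs most in this linear sum. The markers besides Clec4g and Fcgr2b ran from -0.08 (Kdr) to 0.15 (Lyve1), with none called. Lrat, 1 of 7 stellate cell markers, was called higher at 0.32 (limma adjusted p = 0.0398), a call that held in 9 of 18 alternatives (0.0122 to 0.141). Of these 7 markers 5 were above 0 and 2 below, Dcn and Reln, both at -0.08. The median of the list was 0.19 as deposited, 0.10 with quantile normalization, 0.09 with cyclic loess and 0.07 after median centring. The only erythroid marker measured, Alas2, the first enzyme of heme synthesis in red cells, was called lower at -1.15 (limma adjusted p = 0.000190). Cholangiocyte markers summed to 513 to 584 for knockout and 445 to 492 for rescued livers, without overlap as deposited. Their median difference was 0.13 as deposited but 0.02 once the arrays were centred, 0.01 with quantile normalization and -0.00 with cyclic loess. Sox9, at a mean of 8.18 against 7.86, weighs most in this linear sum. Its difference was 0.31 (limma adjusted p = 0.0565), with every knockout array above every rescued array. With quantile normalization 1 of the 4 cholangiocyte markers was called. The part of these markers in the members' values was not tested.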

How the data were processed

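Per the labels, total RNA of 7 frozen livers was read on Affymetrix Mouse Gene ST arrays. The deposited table holds linear intensity values, 1 per probe set and array. RMA and Partek are named, without versions or roles, in the submitters' processing notes on the deposited intensity values, and what scaling was applied last is unknown. The probe sets' genome build is not given in sources used here; coordinates printed here come from RefSeq promoter windows (GRCm38.p6), and the RefSeq gene table served for names and gene order.

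Log2 was taken, each gene was read from its brightest probe set with 1 symbol in the platform annotation, and all 19933 genes were fitted together by lmFit and eBayes of limma 3.58.1 (R 4.3.3) without covariates, two-sided, with p adjusted by Benjamini-Hochberg and a threshold of 0.05. Samples were grouped by their labels, which call them biological replicates. Equal values made up at most 3.79% of any pair of arrays. The fit was tested on simulated data. Alternatives were 3 scalings, a filter on dim genes, other probe sets, other spread models, array weights, a replicate block, other thresholds and each array left out. The members and lists were chosen with earlier results of these data known. Genes were named if called, if among the 3 highest or lowest of a subunit, if probe sets disagreed, or if their name or place is particular, and others were picked after their values were seen; a clause on the brightest and dimmest members was not used, because probe levels of different genes cannot be ranked. The number of arrays limits the precision. Of 77 member symbols, 68 matched a promoter window. Python 3.11.15 and pandas 2.3.3 were used for the motif search and matplotlib 3.10.9 for the plots.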

Additional observations from a re-analysis of the deposited data

Results flagged for a closer look

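Of 99 genes examined in the rescued group (4 arrays), 7 had 1 array far from the other 3, where the gap to the nearest array exceeded, as a share of the group's range, Dixon's critical value at 95% confidence. Chance gives about 1 such gene in 20, and the knockout group is too small for this check. Rescued replicate 4 was the array apart for 5 of them, all high. It was at 7.36 for Mrpl22, with the others between 7.19 and 7.196, and at 7.31 for Mrpl41, with the others up to 7.12. It was at 9.76 for Mrpl50, with the others all equal at 9.70, and at 8.56 for Mrpl54, with the others up to 8.44. For Mrps21, a small protein of the small subunit, it was at 11.06, with the others up to 10.77. Rescued replicate 1 was low for Mrpl46, at 7.60 against 7.70 for the nearest. Rescued replicate 2 was high for Mrps7, at 9.19, with the others all equal at 9.14. Where the others are equal, as for Mrpl50 and Mrps7, a gap of any size passes this check. Rescued replicate 4 was also the highest of its group for 35 of 77 members (45.5%), against 27.3% of all genes. That share was not computed for genes above the median level, which include most members. For those genes too it was the highest rescued array, at a mean deviation of 0.02 as deposited, against -0.02 over all genes.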

How the results depend on the processing

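Of 18 alternatives fitted at the threshold of 0.05, Mrpl48 kept its direction and call in all, and Mrpl12 its direction in all and its call in 14. Both lost the call at a threshold of 0.01 and against a fold of 1.2. Each of them has 1 probe set, so the mean of probe sets and the dimmer probe set could not change their differences. The replicate block gave the same differences as leaving out rescued replicate 4, so these alternatives are not independent of each other. As reported, 1 large subunit gene was called higher and 1 lower, no small subunit gene, and 2867 genes in all. Large subunit genes called higher numbered 2 after quantile normalization, 0 after median centring and 3 among genes above the median level after cyclic loess; the small subunit then had 2 higher in that last setting. Median centring gave 6 large and 1 small subunit genes lower, with medians of -0.13 and -0.058. At a threshold of 0.01 no member and 509 genes were called. At 0.1, 3 large subunit genes were higher, 3 lower and 2 small subunit genes higher, of 5528 genes in all. Testing against a fold of 1.2 (limma treat) called 0 members and 136 genes. With the dimmer probe set of members with several, a setting chosen after seeing the data, 1 gene counted by name with the small subunit was lower; it is Mrps36, no ribosomal subunit, by a probe set under the background level. Leaving out single arrays gave 0 to 1 large subunit genes higher, 1 to 2 lower, 0 small subunit genes, and 897 to 3263 genes in all, with medians of -0.041 to 0.048 (large) and 0.044 to 0.14 (small).

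The replicate numbers did not pair the arrays: same-numbered deviations correlated at 0.15, 0.00 and 0.01. With the replicate block, which leaves rescued replicate 4 without a partner, 1 small subunit gene was called higher, Mrps18b at 0.42 (limma adjusted p = 0.0441). Without rescued replicate 4 and without the block the same difference had an adjusted p of 0.0921. Under the block Mrpl41 turned to 0.010 and Mrpl22 to 0.011.

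Among named genes, the largest difference whose sign turned was that of Mrps14 (-0.15), which was 0.015 without knockout replicate 1. Why signs turned was not tested. Median centring turned Mrpl47 (-0.030), Mrps33 (-0.052), Hgs (-0.052), Coa4 (-0.047), Mrpl10 (-0.064), Mrpl46 (-0.074) and Mrps7 (-0.095). Quantile normalization and cyclic loess turned Mrpl47 (-0.017 and -0.023), and array weights Mrps7 (-0.0068). The mean of the probe sets turned Mrpl23 (0.031) and Mrpl41 (0.018), and the dimmer set Mrpl23 (0.13), Mrpl41 (0.079) and Mrps33 (-0.034). Leaving out single arrays gave ranges across 0 for Mrps14 (-0.26 to 0.015), Coa4 (-0.054 to 0.17), Mrpl46 (-0.019 to 0.097), Mrps7 (-0.091 to 0.077), Mrpl47 (-0.050 to 0.20), Mrpl22 (-0.13 to 0.044), Mrpl23 (-0.15 to 0.069), Mrpl58 (-0.15 to 0.035), Rab6a (-0.11 to 0.018) and Mrpl41 (-0.067 to 0.010). The filter on dim genes kept 72 of 77 members.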
